A study of Mus musculus with 8 samples.

Results

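The sites described here are NFATc2 binding sites that lay far from any gene start and outside promoter-type chromatin in curdlan-stimulated dendritic cells. A peak of the NFATc2 ChIP-seq list was included when its summit, the base with most overlapping tags, fell in no annotated mouse gene and more than 10 kb from the transcription start site (TSS) of any transcript. Its peak also had to share no base with a peak of the 3 H3K4me3 lists. Of 9438 NFATc2 peaks, 4427 had a summit in no gene, 2771 of these lay beyond 10 kb, and 413 of those overlapped H3K4me3 in at least 1 list. The remaining 2358 sites made up 24.98% of all NFATc2 peaks (95% Wilson interval 24.1 to 25.9%). All intervals given below are of this kind and cover counting error alone.

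The cells were D1, a long-term dendritic cell line from the spleen of C57BL/6 mice. For NFATc2, D1 cells had been transduced with a lentivirus encoding NFATc2 with a V5 tag at its C terminus, cells with low green fluorescence were sorted, and chromatin was precipitated by the tag after 30 min with 10 μg/ml curdlan. H3K4me3 was measured in D1 cells that were non-treated (NT) or had received 10 μg/ml curdlan for 2 h, alone or with FK506, an inhibitor of calcineurin whose dose for this assay is not given in the labels. Each of these 4 groups had 1 ChIP library and 1 input library, so that no value between conditions has a replicate check, no p-value is given, and the treatment cannot be told apart from the library. The sites came from exogenous, tagged NFATc2 at a single time, and they were set beside H3K4me3 that was measured at another time.

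Curdlan is a β-glucan of the kind found in fungal cell walls, and it is recognised by the receptor dectin-1. Dectin-1 raises intracellular calcium, calcium activates the phosphatase calcineurin, and calcineurin strips phosphates from NFAT proteins so that they enter the nucleus and bind a GGAAA core, often beside AP-1. H3K4me3 marks the starts of active or poised genes and is scarce at distal regulatory elements. The sites described here are distal by position, and whether they regulate any gene was not tested. NFAT in myeloid cells is known for its part in the expression of cytokines and early response genes.

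The libraries held 14377535 NFATc2 ChIP tags and between 16662316 and 21289349 H3K4me3 ChIP tags per condition, and between 14872 and 15799 H3K4me3 peaks were listed per condition. The H3K4me3 lists fitted the dendritic label: 6 of 7 dendritic cell marker promoters (Itgax, H2-Ab1, Cd74, Ciita, Zbtb46 and Clec7a, but not Flt3) held a peak in every list, against 0 of 3 T cell, 0 of 3 B cell and 0 of 3 fibroblast marker promoters. A peak list holds no value where nothing was called, so that a missing peak means a signal below the caller's threshold and not absence of the mark.

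Examples of the binding sequences are given first. They were picked by the rules stated with them, whereas the shares given below were counted over all sites. All are from the plus strand of the mm9 genome and are named by the protein-coding genes to the left and right of the summit. The first 7 are the sites beside a gene of the lists used below with GGAAAA within 20 bp of TGANTCA, an AP-1-type string. N is any base, whereas the AP-1 consensus has C or G there, so that TGANTCA is looser. The Rbpj, Zeb2, Inhba and Prdm1 examples have A or T at this base. Capitals mark GGAAAA, its reverse complement TTTTCC, and TGANTCA.
Slc25a24–Vav3, chr3:109058008-109058056: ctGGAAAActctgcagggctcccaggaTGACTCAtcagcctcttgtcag
1810013D10Rik–Rbpj, chr5:53882183-53882245: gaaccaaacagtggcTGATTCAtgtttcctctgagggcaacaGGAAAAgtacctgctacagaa
Zeb2–Acvr2a, chr2:45135060-45135116: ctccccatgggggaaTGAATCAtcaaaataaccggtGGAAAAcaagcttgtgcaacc
Inhba–5033411D12Rik, chr13:16353426-16353474: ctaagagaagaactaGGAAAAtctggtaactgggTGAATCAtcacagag
Prdm1–Gm4795, chr10:44379538-44379584: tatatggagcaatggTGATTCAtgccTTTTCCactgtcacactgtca
Rassf6–Cxcl5, chr5:91144841-91144891: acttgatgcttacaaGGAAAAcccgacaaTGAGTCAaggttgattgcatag
Myc–Gsdmc, chr15:63102188-63102247: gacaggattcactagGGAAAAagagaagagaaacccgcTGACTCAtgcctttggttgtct
The gap between the strings ranged from 4 bp beside Prdm1 to 20 bp beside Rbpj. Their order differed as well, with TGANTCA to the left in 3 of the 7. These sites covered much of the range of strength, with 365 tags in the Vav3 site, 172 beside Rbpj, 144 beside Zeb2, 85 beside Inhba, 69 beside Prdm1, 59 beside Cxcl5 and 24 beside Myc.

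A second set shows 100 bp around the summit of sites with many tags, and of sites that the study also tested by ChIP-PCR. Capitals mark GGAAAA or TTTTCC alone.
F2rl1–F2r, tested by ChIP-PCR, chr13:96362876-96362976: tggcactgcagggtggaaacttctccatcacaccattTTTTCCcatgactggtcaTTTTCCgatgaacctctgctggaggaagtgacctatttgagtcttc
Tet2–Cxxc4, tested by ChIP-PCR, chr3:133290106-133290206: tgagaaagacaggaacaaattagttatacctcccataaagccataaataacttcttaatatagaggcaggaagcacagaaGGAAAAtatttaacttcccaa
Sec61b–Nr4a3, tested by ChIP-PCR, chr4:47879478-47879578: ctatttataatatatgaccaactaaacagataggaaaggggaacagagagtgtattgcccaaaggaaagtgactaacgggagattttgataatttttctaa
Tmem2–Trpm3, most tags, chr19:21971724-21971824: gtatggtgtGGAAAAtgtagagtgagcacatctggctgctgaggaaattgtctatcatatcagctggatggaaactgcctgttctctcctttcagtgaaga
Vmn2r120–Cntnap5c, second most tags, chr17:57812630-57812730: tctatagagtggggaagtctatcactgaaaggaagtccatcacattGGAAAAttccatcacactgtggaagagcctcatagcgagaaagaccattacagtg
Gm6576–Ank, chr15:27257578-27257678: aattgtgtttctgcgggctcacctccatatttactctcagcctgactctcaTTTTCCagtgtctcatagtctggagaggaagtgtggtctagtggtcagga
Otoa–Hs3st2, chr7:128415025-128415125: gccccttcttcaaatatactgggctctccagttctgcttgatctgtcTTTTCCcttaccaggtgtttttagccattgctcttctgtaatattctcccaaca
The F2rl1–F2r site held 2 copies of the string. The Sec61b–Nr4a3 site held none in spite of its 384 tags, and 0 copies within 50 bp were also found at 8 of the 12 sites with most tags.

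Binding at the far intergenic sites was close in strength to that over the whole list. A site held a median of 59 tags (quartiles 38 and 100, range 14 to 722), which is 4.10 when the library is scaled to 1000000 ChIP tags, against 63 tags over all NFATc2 peaks. The median was 57.5 tags at intronic sites without H3K4me3, 65 at promoter sites (summit within 1 kb of a TSS, whether or not in a gene) and 98 at the 413 far intergenic sites that overlapped H3K4me3. Fold enrichment, the ratio of ChIP tags at the summit to the local background of the input, gave another order. Its median was 14.2 at the far sites without the mark (quartiles 10.9 and 19.6), 13.4 at intronic sites, 12.7 at far sites with the mark and 12.2 at promoter sites. The far sites with the mark also had longer peaks, with a median of 1476 bp against 1032 bp without it.

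A p-value of 1e-10 or less, far below the authors' threshold of 1e-05, was reached by 1239 of the 2358 sites (52.5%, interval 50.5 to 54.6%). The share was 59.1% at far sites with H3K4me3, 48.3% at intronic sites without it, 47.0% at promoter sites and 50.4% over all peaks. The top decile of all NFATc2 peaks began at 167 tags and held 230 far intergenic sites without H3K4me3, or 9.75% of the class (8.62 to 11.02%). The share was 7.22% at intronic sites and 22.8% at far sites with the mark. The 2358 peaks covered 2.77 Mb and held 191698 tags, 1.33% of the NFATc2 library.

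**Figure D1:**
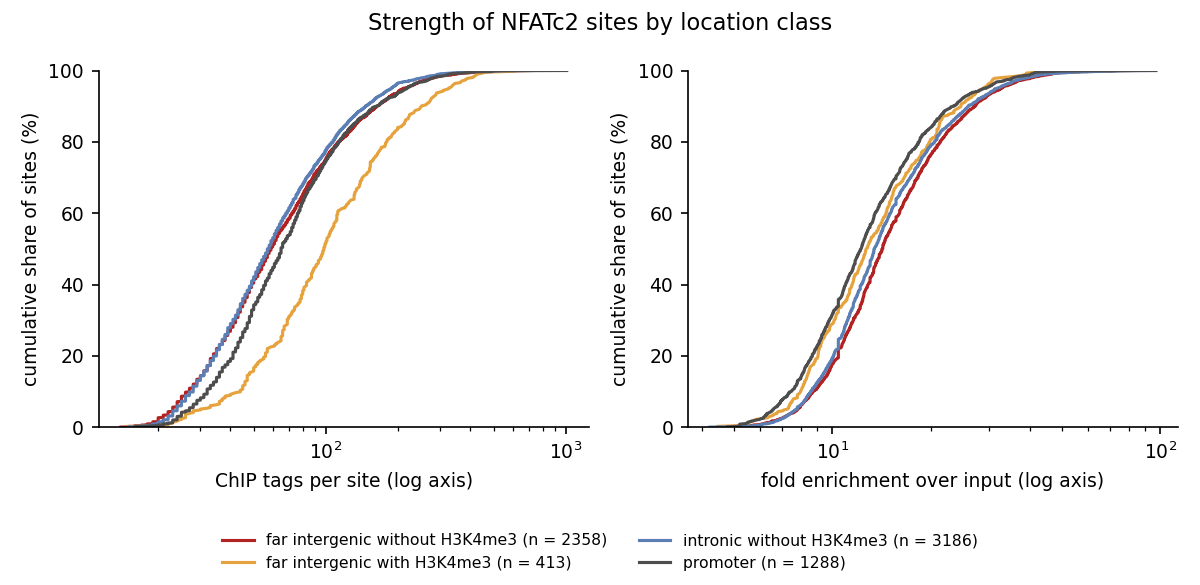
Cumulative share of NFATc2 sites (vertical axis, percent) against tags per site and against fold enrichment (log axes), with a line for each location class. The far intergenic sites without H3K4me3 follow the intronic sites in tags (medians 59 and 57.5), whereas far sites with H3K4me3 lie to the right (median 98).

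The site with most tags (722, fold enrichment 20.4) lay between Tmem2 and Trpm3, a cation channel gene, 118942 bp from the nearest Tmem2 TSS. It was followed by 686 tags between Vmn2r120 and Cntnap5c, where the fold enrichment was 47.4 but the authors' false discovery rate (FDR) was 100%. This was the only far site at 100%, and 7 of the 2358 had an FDR above 5%, a set that also took in the Otoa–Hs3st2, Nmbr–Cited2 and Lilra6–Lair1 sites among the 12 with most tags. Other strong sites held 636 tags between Ptpn12, a tyrosine phosphatase gene, and Pion, and 551 between Kntc1 and Niacr1, the niacin receptor gene. A site between Has1 and Fpr1, a formyl peptide receptor gene, held 439 tags. The site between Ccnd1, the gene for cyclin D1, and Tpcn2 held 419. The highest fold enrichment, 82.5, was found for a site of 137 tags between Mrps11 and Det1. Strength in tags and in fold enrichment thus picked different sites, and the Otoa–Hs3st2 site (418 tags, 70.8) was the one that ranked in the top 12 by tags and in the top 5 by fold enrichment.

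The study's 15 ChIP-PCR primer pairs were matched to the mm9 sequence, and the predicted product of 13 lay inside an NFATc2 peak. The CK and REST pairs lay in none, and the paper used REST primers as a negative control. Since the study tested selected binding peaks, the count of 13 follows in part from the choice of pairs. Of the predicted products, 5 lay in far intergenic sites. Besides the sites shown above beside F2rl1, the receptor gene for a protease-activated receptor (347 tags), Tet2, a DNA demethylation enzyme gene (96 tags), and Nr4a3, an orphan nuclear receptor gene (384 tags), these were Cd72–Sit1 with 248 tags and Clrn2–Lap3 with 54 tags. Their fold enrichments ranged from 26.8 to 42.9, all above the class median.

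Strength varied little with distance from genes. The median distance to the nearest TSS of any gene was 34.2 kb (quartiles 19.2 and 72.6). Sites at 10 to 20 kb numbered 624 with a median of 58 tags, sites at 20 to 50 kb 885 with 57, sites at 50 to 100 kb 442 with 62, sites at 100 to 200 kb 277 with 68, and sites beyond 200 kb 130 with 56. Median fold enrichment stayed between 13.7 and 14.6 across these distances. The most remote site, between Ctnna3 and Reep3, lay 910722 bp from any TSS and held 109 tags. At the limit itself, the nearest sites beyond it were 10008 bp (47 tags, Galnt10–Sap30l) and 10010 bp (74 tags, Siglec5–Siglecg) from a TSS, and the nearest excluded ones 9969 bp (52 tags, Bre–Gm10463) and 9937 bp (18 tags, 2010317E24Rik–Entpd2).

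The rule left out sites that overlapped H3K4me3 or lay within 10 kb of a TSS, so that distance from H3K4me3 follows in part from it. Other sequence beyond 10 kb was not measured in this way. The median gap between a site and the nearest H3K4me3 peak of any list was 33548.5 bp, 505 sites lay more than 100 kb away, and 385 (16.3%) had a peak within 10 kb. A peak within 1 kb was found at 52 sites, and 2306 would remain if these were excluded.

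The GGAAAA string, the core with an extra A that NFAT prefers, was found on either strand within 100 bp of the summit at 1047 sites (44.4%, 42.4 to 46.4%). In windows of the same length centred 1 kb to each side it was found in 18.3% (17.3 to 19.5%), a ratio of 2.42. The share was 45.9% at intronic sites, 48.1% at promoter sites, 37.5% at far sites with H3K4me3 and 45.6% over all peaks. The string was therefore about as common at far sites as in the rest of the list. Where present, its closest copy lay a median of 26.5 bp from the summit, and within 25 bp at 484 sites. Across tag quartiles from weakest to strongest the share was 46.0, 43.9, 41.0 and 46.6%, and across the distance classes above it stayed between 43.7 and 45.0%. The share thus varied little with strength or distance.

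The AP-1-type string TGANTCA, looser than the AP-1 consensus, was counted next. AP-1 is the Fos–Jun family dimer that binds DNA jointly with NFAT at many cytokine genes. The string was found at 592 far sites (25.1%, 23.4 to 26.9%) and in 6.96% of flanking windows, a ratio of 3.61. At promoter sites the share was 16.1% (14.2 to 18.3%) and at intronic sites 22.3% (20.9 to 23.8%), so that the interval of the far sites lay above that of promoters and overlapped that of introns slightly. The flanking windows followed the same order, with 4.70% at promoter and 6.03% at intronic sites, so that the ratio to them was alike (3.44 at promoters, 3.71 at introns and 3.54 over all peaks). GGAAAA and TGANTCA occurred together at 216 sites (9.16%). They lay within 20 bp of each other at 57 sites (2.42%, 1.87 to 3.12%), against 11 of 4716 flanking windows (0.233%, 0.130 to 0.417%). This share was 3.08% at intronic sites, 2.25% at promoter sites and 2.64% over all peaks, so that such pairs were not particular to the far sites. The most frequent gap was 2 bp, at 9 sites.

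Strings of other myeloid factors were counted in the same way, on both strands. GGAAAA can share bases with the IRF, NF-κB and C/EBP strings below, but at most 1 base with the PU.1 string. GAGGAAGT, a binding sequence of PU.1, the master regulator of myeloid cells, was found at 228 sites (9.67%, 8.54 to 10.9%) against 1.61% of flanking windows, the largest ratio of the 6 strings (6.00). It was about as common at intronic sites (9.42%, ratio 8.22) and over all peaks (9.27%, ratio 6.43), and stood at 7.45% at promoter sites (ratio 4.92). A GAAA repeat with 2 bases between the copies, bound by interferon regulatory factors, was found at 6.66% against 2.88%. GGGA and TTTCC with 1 base between them, bound by NF-κB, was rare at 1.02% but found in only 0.191% of flanking windows. TTGCNNAA, bound by C/EBP factors, was found at 10.1% (8.94 to 11.4%) and in 8.74% of flanking windows (7.96 to 9.58%), where the intervals overlapped. Base composition differed as well, with a median GC content of 44.8% at far sites and 48.8% at promoter sites, and no CpG at all in 20.02% against 5.59%. A match to these letters is a description of the sequence and not evidence of binding by the factor.

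**Figure D2:**
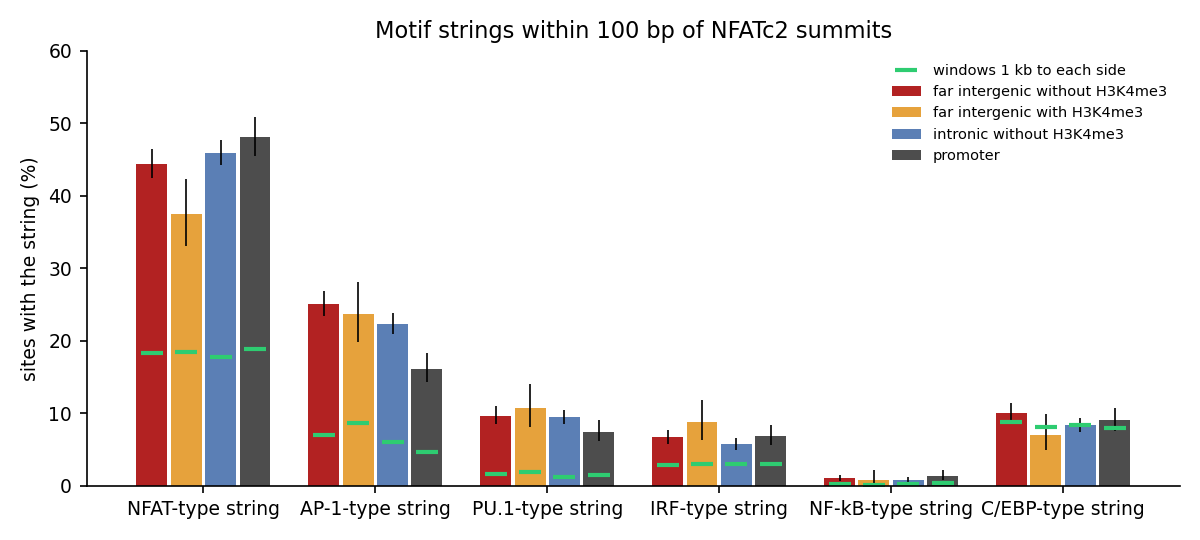
Share of sites (percent, bars, with 95% Wilson intervals) with a NFAT-, AP-1-, PU.1-, IRF-, NF-κB- or C/EBP-type string within 100 bp of the summit, for each location class, with short green lines for windows 1 kb to each side. At far sites without H3K4me3 the NFAT string stands at 44.4% and the AP-1 string at 25.1%, both above their flanking windows (18.3 and 6.96%), whereas the C/EBP string (10.1%) is close to its own (8.74%).

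The sites were found on all 20 chromosomes examined, with 39 on the X chromosome as the fewest. Sequence that could have held one, outside genes and more than 10 kb from any TSS, came to 1220 Mb, which gives 0.193 sites per 100 kb. The sites lay in 1305 of 11076 intervals between genes. The 67 intervals with at least 5 sites held 474 of them (20.1%) in 3.27% of the sequence. These intervals were picked by their count of sites, so that a high share in them follows in part from the choice. No number expected from interval length was calculated, and whether the sites cluster was not tested. Conversely, 811 sites were alone in their interval. Another far site lay within 10 kb of 706 sites (29.9%).

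The interval with most sites lay between Irf2bp2, a transcriptional corepressor of IRF2, and Tomm20, a mitochondrial import receptor. It held 19 sites in 205 kb, 5.75 per 100 kb of usable sequence, between 112 and 317 kb from the Irf2bp2 TSS. Their tags ranged from 47 to 354 with a median of 83, 9 of the 19 held GGAAAA, and 9 reached a p of 1e-10. Next came Eea1–Btg1, with an antiproliferation gene on the right, and Pard3–Gm17350, each with 14 sites (median tags 118.5 and 76.5), then Myo16–3930402G23Rik with 12 (median 43). Nmbr–Cited2, 1810013D10Rik–Rbpj and Ly86–Rreb1 held 11 each. The 11 beside Rbpj, the nuclear effector of Notch signalling, were strong, with 52 to 401 tags and a median of 174.

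**Figure D3:**
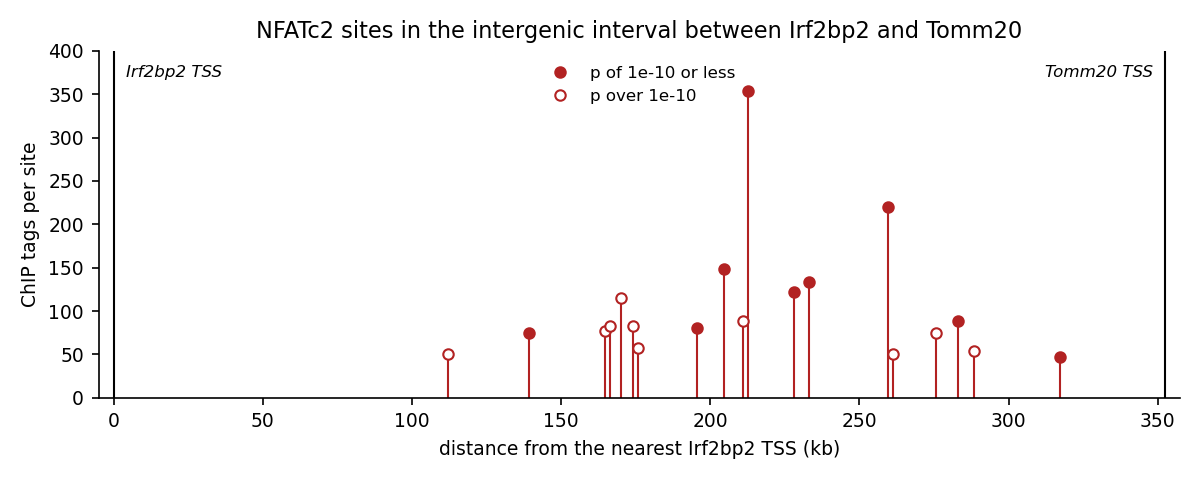
Tags per site (vertical axis) against distance from the nearest Irf2bp2 TSS (kb) for the 19 far intergenic sites between Irf2bp2 and Tomm20, with filled circles for a p-value of 1e-10 or less. The sites lie between 112 and 317 kb from Irf2bp2 and hold 47 to 354 tags.

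For each site the nearest protein-coding gene on the left and on the right was taken. This gave 4714 pairs of a site and a gene and 2398 distinct genes, with a gene on both sides of 2356 sites. The 2398 were 10.7% of all 22350 protein-coding genes and 16.1% of those that border usable sequence. The nearer TSS of the pair lay a median of 45.7 kb away and the farther 151 kb. The gene turned its 5′ end to the site in 53.3% of pairs (51.8 to 54.7%), and the nearer gene did so in 59.3% (57.3 to 61.3%). The nearer gene was taken by TSS distance, which is shorter for a gene that faces the site. A higher share at nearer genes is therefore in part built into that choice.

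A promoter was counted as marked when an H3K4me3 peak overlapped 1 kb to each side of a TSS. In NT cells 1413 of the 2398 flanking genes were marked (58.9%, 56.9 to 60.9%), against 49.0% of all protein-coding genes. With curdlan the numbers were 1416 (59.0%) against 48.9%, and with curdlan and FK506 1413 (58.9%) against 48.7%. Genes that border usable sequence but flanked 0 sites were marked in 41.1% (40.3 to 42.0%) in NT cells. The share differed little with the number of sites, from 57.0% of 1384 genes with 1 site to 62.0% of 166 with at least 5. It differed more with distance. Where the nearest site lay within 20 kb of a TSS it was 65.5%, at 20 to 50 kb 67.7%, at 50 to 100 kb 59.9% and beyond 43.2%. The median usable sequence beside the gene rose over these bands as well, at 47.0, 76.9, 123 and 425 kb. Distance to a site was not separated from it. Flanking genes bordered more usable sequence (median 126 kb) than genes with 0 sites (28.8 kb), so that counts per gene are given beside densities below.

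The marked promoters of flanking genes also held more H3K4me3 tags per peak. With the tags of each promoter peak scaled to a library of 1000000 ChIP tags (scaled tags), their median was 47.9 in NT cells, 46.7 after curdlan and 44.4 after curdlan plus FK506, against 41.2, 38.7 and 37.03 at genes with 0 sites. At genes with at least 5 sites they were 62.7, 62.8 and 59.2. Median fold enrichment differed less, at 44.2, 74.4 and 59.3 for flanking genes and 43.3, 71.4 and 59.6 at genes with 0 sites. By this measure flanking genes were not higher with FK506. Over all genes the medians were 43.2, 71.5 and 59.3. An NFATc2 site at the promoter itself was found for 193 flanking genes (8.05%, 7.03 to 9.21%), against 4.50% (4.15 to 4.88%) of genes with 0 far sites.

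Both flanking promoters were marked in NT cells at 876 of 2356 sites (37.2%), 1 of them at 1090 (46.3%) and neither at 390 (16.6%). The corresponding numbers were 887, 1083 and 386 with curdlan and 874, 1093 and 389 with curdlan and FK506. The nearer gene was marked at 65.8% of sites (63.8 to 67.7%) and the farther at 54.8% (52.8 to 56.8%) in NT cells. Sites between 2 marked promoters held a median of 66 tags, those beside 1 held 56, and those beside none 55.5. Per 100 kb of usable sequence there were 0.585 sites between 2 marked promoters, 0.206 beside 1 and 0.0727 between unmarked ones. The curdlan list gave 0.589, 0.206 and 0.0717, and the list with FK506 0.591, 0.207 and 0.0719.

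Because intervals between marked genes were shorter, the densities were also compared within bands of distance to the nearest TSS, a comparison chosen after the data had been seen. At 10 to 20 kb the density was 0.816, 0.371 and 0.111 per 100 kb for 2, 1 and 0 marked promoters in NT cells. At 50 to 100 kb it was 0.494, 0.187 and 0.0706, and beyond 200 kb 0.134, 0.0615 and 0.0396, from 23, 66 and 41 sites. The order of the 3 groups was the same in each of the 5 bands. How well reads map to these sequences was not examined.

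**Figure D4:**
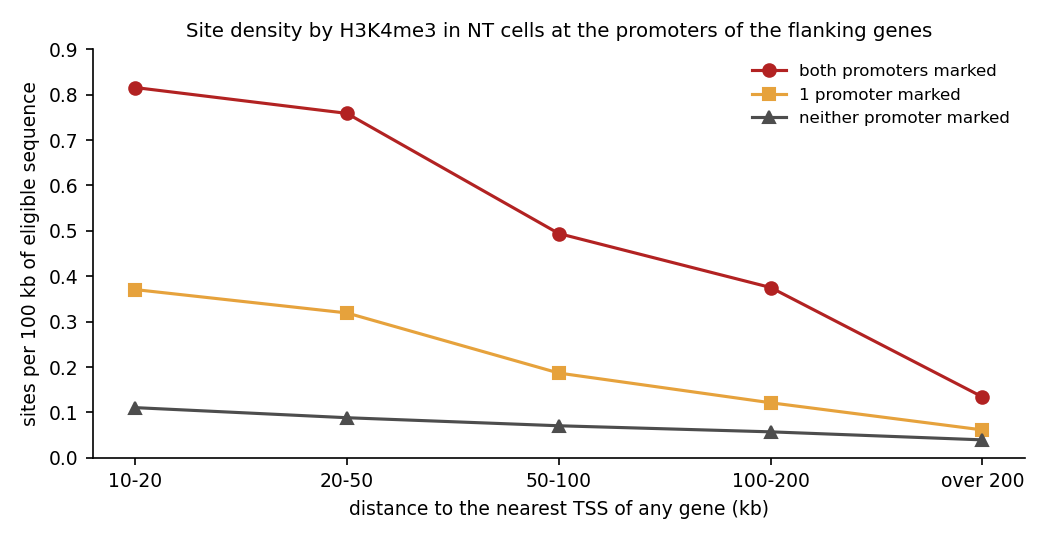
Far intergenic NFATc2 sites per 100 kb of usable sequence (vertical axis) by distance to the nearest TSS of any gene (kb), with a line for intervals whose 2 flanking promoters both, singly or never held H3K4me3 in NT cells. The line for both lies highest in every band, from 0.816 at 10 to 20 kb to 0.134 beyond 200 kb, and the line for neither lowest.

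To compare conditions, the log2 ratio of promoter fold enrichment was centred on its median over all protein-coding genes with a peak in both lists (0.73 for curdlan over NT and −0.27 for FK506). Among 1402 flanking genes, 232 were more than 1.5-fold higher with curdlan than in NT (16.5%, 14.7 to 18.6%) against 14.4% of all genes. Lower values were found for 187 (13.3%, 11.7 to 15.2%) against 14.8%. At a limit of 2-fold the split turned, with 48 higher (3.42% against 3.99% of all genes) and 59 lower (4.21% against 3.902%). The median log2 difference of the flanking genes was −0.01. With FK506 relative to curdlan alone, 171 of 1403 were higher (12.2%, 10.6 to 14.0%) against 14.0%, and 204 were lower (14.5%, 12.8 to 16.5%) against 14.6%. At genes with 0 far sites the shares were 13.8% higher (12.9 to 14.8%) and 14.8% lower with curdlan, and 14.7% higher (13.8 to 15.7%) and 14.2% lower with FK506. The interval of the share higher with curdlan lay just above the share of all genes, and the other 3 intervals held it. Intervals of flanking genes and of genes with 0 sites overlapped.

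A second measure, the log2 ratio of scaled tags, centred in the same way (−0.12 for curdlan over NT and −0.05 for FK506), gave fewer differences and another split. With curdlan 130 flanking genes were higher than in NT (9.27%, 7.86 to 10.9%) against 5.30% of all genes and 5.22% (4.65 to 5.87%) of genes with 0 sites, and 28 were lower (2.00%) against 1.67%. With FK506 14 were higher than with curdlan alone (0.998%) against 0.759%, and 38 were lower (2.71%, 1.98 to 3.70%) against 2.31%. Genes higher with curdlan by both measures numbered 45, or 19.4% of those called by fold enrichment and 34.6% of those called by tags. Over all genes there were 155, or 9.97 and 27.1%. Fold enrichment is read at the summit against the input, whereas tags sum the whole peak, and the part of the input libraries in this disagreement was not tested. The curdlan library stands in both comparisons, so that they are not independent of each other.

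The largest differences by fold enrichment illustrate this. Cbr4, a carbonyl reductase gene, stood 1.93 log2 units higher with curdlan than in NT, yet its peak held 482 and 554 tags, a centred log2 difference of −0.03 in scaled tags. Fcgr2b, the inhibitory Fc receptor gene, stood at −2.22 with 111 and 109 tags. Only for some genes were both measures high: Gpr126, an adhesion receptor gene, differed by 1.74 by fold enrichment and 1.67 by tags (246 tags in NT, 919 with curdlan and 790 with FK506), and Inpp5a, an inositol phosphatase gene, by 1.62 and 1.21 (151, 411 and 251 tags). Mef2d, a transcription factor gene, was lower by both, at −1.63 and −0.97 (2005, 1199 and 1086 tags). The values for Egr2, Chd7, Mtdh, Tcf12 and Abce1 were between 1.43 and 1.57 by fold enrichment and between −0.16 and 0.63 by tags. With FK506 the lowest values were those of Tnfsf14 and Siglec5, described next, which stood apart by both measures. Ppm1l, Cdca8 and Cbr4 were lower by fold enrichment (−1.83, −1.68 and −1.73) but not by tags (0.03, 0.12 and 0.16).

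A promoter peak with curdlan but not in NT was found for 14 flanking genes (0.584%, 0.348 to 0.978%) against 0.488% of all genes. Of the 14, 9 also had one with FK506, as had 63 of the 109 such genes over the genome. With H3K4me3 peaks limited to an FDR of 5% or less the number was 24, against 0.550% of all genes. The reverse was found for 11 (0.459%, 0.256 to 0.820%) against 0.577%. Listed cytokine genes made up 5 of the 14, and their share of the 109 genes was not counted. The difference was not confined to cytokine genes beside far sites. Il23a, a listed cytokine gene with 0 far sites, also had a peak with curdlan (412 tags) and with FK506 (189 tags) but none in NT. Tnfsf14 encodes LIGHT, a costimulatory ligand of T cells, and its promoter held 923 tags with curdlan and 197 with FK506. It flanked 2 far sites, the nearest 11.2 kb away with 227 tags, and carried an NFATc2 site at the promoter too. Siglec5, a sialic acid receptor gene, held 834 and 226 tags, with 3 far sites and a promoter site. Il1a, the gene of an alarmin cytokine, held 504 and 409 tags. Tnfsf15 held 423 and 286, with 4 far sites and a promoter site. Il1rn, which encodes the natural antagonist of the IL-1 receptor, held 266 and 110.

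Without a listed peak when FK506 was present were Irg1, the gene of the itaconate-producing enzyme (202 tags with curdlan), Cd70, the ligand of CD27 (139 tags), Gna14, a G protein subunit (130 tags), Srcin1 (53 tags) and Vangl2 (51 tags). F2rl1 was weak in both (73 and 64 tags).

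Genes of fixed functional lists were then followed, each with its number of far sites. Feedback regulators of signalling were nearly all flanking genes: 21 of 24 genes, or 95.5% of the 22 that border usable sequence, where the share over all such genes was 16.1%. Cytokines followed with 65.6% of 32, transcription factors with 57.5% of 40, and costimulation and adhesion genes with 56.2% of 16. The shares were 34.8% of 23 for the calcineurin and NFAT pathway, 31.6% of 19 for the dectin-1 pathway and 26.1% of 23 for chemokines and their receptors. The lists were made with earlier results on these data known, and the amount of usable sequence beside each gene was not adjusted for, so that the shares are a description.

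Many flanking cytokine genes had no listed promoter peak. Of 21 flanking cytokine genes, 6 were marked in NT cells, 11 after curdlan and 10 after curdlan plus FK506. Csf1, the macrophage growth factor gene, held 392 tags in NT, 1225 with curdlan and 671 with FK506 (23.5, 57.5 and 34.5 scaled tags), with 4 far sites. Edn1, the gene for endothelin, held 97.1, 130 and 80.7 scaled tags in the same order and Tnfsf8, with 7 sites, 152, 143 and 101. Values of Tnfsf9 (150, 169 and 168), Spp1 (65.7, 57.3 and 48.1) and Inhba (18.1, 17.8 and 16.7) lay closer together. By tags, 4 of the 10 marked in both the curdlan and the FK506 list were more than 1.5-fold lower with FK506. None was higher, and the shares of all genes were 2.31% lower and 0.759% higher. Il23a and Clcf1, listed cytokine genes with 0 far sites, were also lower past this limit, so that it was not particular to flanking ones. By fold enrichment 4 of the 10 flanking genes were lower and 1, Il1a, was higher, at 0.61 on the log2 scale. No promoter peak was listed in any condition for Il12b, Csf2, Il10, Il22, Il1b, Tnfsf4, Tnfsf18, Ifng, Ifnb1 and Areg, although each flanked a far site. Among these, Ifng flanked 5 sites, the nearest 33.8 kb away with 176 tags, and Il12b, the gene of the shared subunit of IL-12 and IL-23, flanked 1 at 27.1 kb. At Il12b the paper reports H3K4me3 enrichment with curdlan that was lower with FK506, by ChIP-PCR and ChIP-seq. A missing peak in these lists therefore does not mean that Il12b lacked the mark.

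Feedback regulators, by contrast, were marked at 18 of 21 promoters in all 3 lists, the exceptions being Spry1, Spry2 and Pde4d, which had no peak in any. By tags 7 of the 18 were more than 1.5-fold higher with curdlan and 1 was lower, where 5.30 and 1.67% of all genes were. By fold enrichment the split was 3 higher and 3 lower (14.4 and 14.8% of all genes), and Dusp2 alone was higher by both. The values that follow are scaled tags. The highest difference was that of Dusp2, a MAP kinase phosphatase gene, with 4.08 scaled tags in NT, 42.7 with curdlan and 32.6 with FK506. Tnfaip3, which encodes the NF-κB inhibitor A20, stood at 67.3, 224 and 221, Rgs1 at 5.88, 19.9 and 19.9, and Socs3, an inhibitor of cytokine receptors, at 86.1, 161 and 162. Dusp5 (133, 242 and 217), Nfkbia, the IκBα gene (82.8, 143 and 137), and Dusp1 (38.8, 61.3 and 71.3) were the others. In all 7 the value with FK506 was above that in NT. Zfp36l2, an mRNA decay factor gene, went the other way, with 129, 61.0 and 32.8. Socs3 flanked 3 far sites, the nearest 22.4 kb away with 229 tags, whereas Tnfaip3 flanked 1, 104 kb away. Dusp10 flanked 11 sites and Nfkbiz 9, and their values were 11.6, 11.1 and 9.76 and 107, 134 and 139.

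All 23 flanking transcription factor genes were marked in every list, where 43 of the 45 annotated genes of the whole list were marked in each. Nr4a1, an early response gene, held 117 tags in NT, 2124 with curdlan and 956 with FK506 (7.02, 99.8 and 49.1 scaled tags), and Nr4a3 held 1740, 4510 and 3123. Both also carried an NFATc2 site at the promoter, and Nr4a3 flanked 6 far sites, the nearest 152 kb away. Atf3 stood at 66.2, 144 and 145 scaled tags, Rel, an NF-κB subunit gene, at 135, 212 and 170, Cebpb at 16.8, 25.8 and 24.1, and Bcl6 at 107, 163 and 180. These 6 were the ones more than 1.5-fold higher by tags, and 0 were lower, where 5.30 and 1.67% of all genes were. Listed transcription factor genes with 0 far sites, among them Egr1 and Nfkb1, also passed this limit by tags. By fold enrichment 7 flanking ones were higher and 1, Klf6, was lower (14.4 and 14.8% of all genes). Of the 6 higher by tags, Nr4a1, Atf3, Rel and Cebpb were also higher by fold enrichment. Nr4a3 and Bcl6 were not, at −0.18 and −0.01. Klf6 (14 sites) held 3338 tags in NT, 4445 with curdlan and 3947 with FK506, and the centred log2 difference between curdlan and NT was 0.18 by tags but −1.13 by fold enrichment. Zeb2 (8 sites) stood at 48.4, 66.7 and 66.5 scaled tags, with differences of 0.58 and 1.37. Rbpj (12 sites) stood at 144, 174 and 162 and Myc (7 sites) at 182, 175 and 167. Id2 (8 sites), the gene of an inhibitor of basic helix-loop-helix factors, stood at 280, 182 and 202, a difference of −0.49 by tags that did not pass the limit and of 0.33 by fold enrichment.

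Of the costimulation and adhesion genes, 6 of 9 were marked. Cd83, a maturation marker of dendritic cells, held 273 tags in NT, 2835 with curdlan and 2471 with FK506, with a far site of 51 tags at 17.0 kb. Slamf7 stood at 8.70, 22.8 and 13.4 scaled tags and Cd86, the ligand of CD28, at 119, 163 and 157. Ptger4, a prostaglandin receptor gene with 10 far sites, stood at 180, 202 and 211. In the calcineurin and NFAT pathway 7 of 8 were marked. Nfatc1, itself an NFAT gene, stood at 130, 225 and 150, with its nearest far site 183 kb away, and Dyrk2, a kinase that phosphorylates NFAT, at 27.4, 41.1 and 34.7. In the dectin-1 pathway all 6 were marked, with Vav1, a guanine nucleotide exchange factor gene, at 94.0, 172 and 112, Src at 2.46, 5.40 and 10.1, and Itgam, which encodes CD11b, at 109, 60.8 and 67.6. Only 6 of 30 chemokine and receptor genes flanked a site and 2 were marked, Ccl12 (155, 285 and 190 tags) and Cxcr4 (1118, 1156 and 1098 tags).

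**Figure D5:**
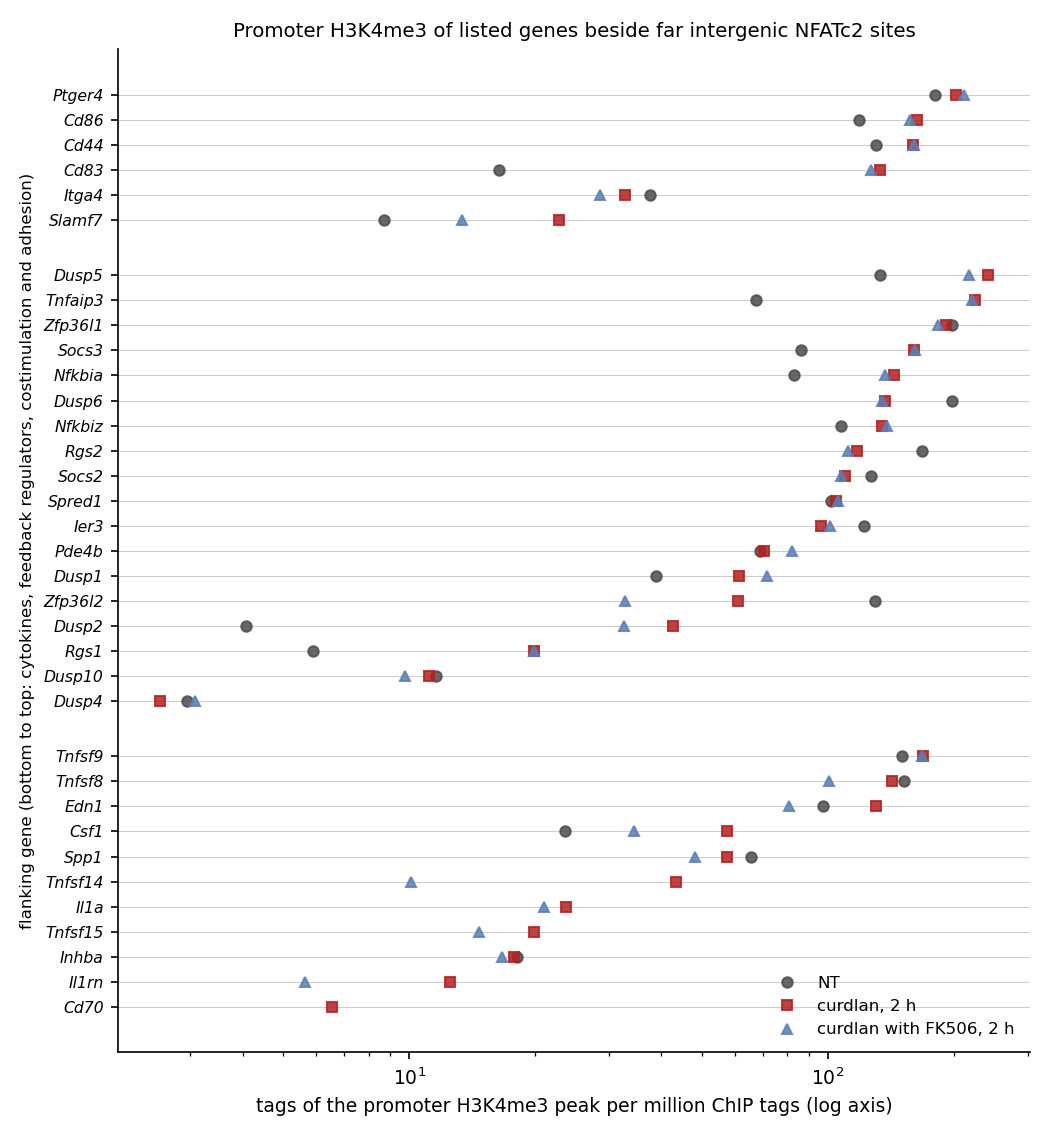
Tags of the promoter H3K4me3 peak scaled to 1000000 ChIP tags (log axis) in NT, curdlan and curdlan+FK506 cells for listed genes beside far intergenic NFATc2 sites, with 1 point per condition and none where no peak was listed. Dusp2 (4.08, 42.7 and 32.6) and Cd83 (16.4, 133 and 127) show wide gaps between NT and both curdlan conditions, and Tnfsf14 has points for curdlan (43.4) and curdlan+FK506 (10.1) alone.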

How the data were processed

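NFATc2 (V5 ChIP-seq) and H3K4me3 peak lists from D1 cells were used, with samples grouped by their labels. Reads were aligned by the authors to mm9 (bowtie), and peaks were called per library against its own input with MACS (1.4.2 in the file headers) at a p of 1e-05. The deposited lists give for each peak a count of tags, not normalized. They also give a score, −log10 p multiplied by 10, and the ratio called fold enrichment, which the authors' caller computed against the local input background. The FDR was deposited in percent.

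Genes were those of Ensembl release 65 on NCBI mouse build 37 (mm9). Chromosomes 1 to 19 and X were used. Usable sequence lay outside genes, from 3000001 bp on, and more than 10 kb from a TSS. A promoter was 1 kb to each side of a TSS and took its overlapping H3K4me3 peak with most tags. Peaks can span several promoters. No test was made between conditions, since each had 1 library. Shares carry 95% Wilson intervals.

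Named sites and genes followed a rule: the 12 sites with most tags, the 5 with the highest fold enrichment and the 5 farthest from a TSS, the 2 on each side of the 10 kb limit, those holding a ChIP-PCR product, the 5 intervals with most sites, listed flanking genes, the 12 promoters with most tags among those marked with curdlan but not in NT, and the 8 (for FK506, 6) largest differences each way among genes with at least 100 tags in both lists. Not all were described, and 1 of the 12 sites with most tags is not reported here. Members, lists and tests were chosen with earlier results of these data known. Alternatives were the TSS limit, annotation, overlap, p and FDR limits, motif and promoter windows, gene assignment, measure and centring. Functions were tested on simulated data. Software was samtools 1.23.1 and Python 3.11.15 with matplotlib 3.10.9, pysam 0.24.0, scipy 1.17.1, pandas 2.3.3 and numpy 2.4.6.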

Additional observations from a re-analysis of the deposited data

How the results depend on the processing

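Of 45 alternative settings, 25 left a result within its spread or within 1.5 times its count and 20 moved it. The split of higher and lower promoters with curdlan over NT turned at a fold limit of 2, as given below. At an NFATc2 p of 1e-10 or less there were 1239 sites with a median of 89 tags and a median fold enrichment of 18.9, and GGAAAA was found at 47.5%. Within 50 and 250 bp of the summit GGAAAA was found at 31.0 and 61.7% and TGANTCA at 16.0 and 35.0%. The share of flanking genes marked in NT was 63.4% with only the gene of the nearest TSS and 64.9% with a TSS within 100 kb. Genes past 1.5-fold with curdlan over NT (419, of which 55.4% higher) numbered 158 by scaled tags (82.3% higher), 882 without centring (97.6% higher), 107 at a limit of 2 (44.9% higher, so that lower ones were in the majority), 264 with the nearest gene only and 269 at the stricter p. With FK506 over curdlan (375, 45.6% higher) they numbered 52 by scaled tags (26.9% higher), 469 without centring (13.6% higher), 105 at a limit of 2 (33.3% higher), 229 and 241. Genes with a promoter peak with curdlan and none in NT were 24, in place of 14, where 0.550% in place of 0.488% of all genes had one, among H3K4me3 peaks with an FDR of 5% or less. Fewer sites and genes enter at the stricter p and with the nearest gene only, and the cause of the other shifts was not tested. The alternative that kept NFATc2 peaks with an FDR of 5% or less, chosen after seeing the data, left 2351 sites. No paired analysis was possible because each condition had 1 library, and for the same reason no replicate could be left out. Sites and marks near the callers' thresholds are limited by depth.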
